A study of Mus musculus with 10 samples.

Results

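The Rab GTPases were examined in splenic B cells with and without LSD1, a histone demethylase encoded by Kdm1a. Their members were all genes of the deposited expression table whose symbol is Rab followed by a number, with at most 1 further letter and 1 further digit. This gave 35 genes of the 9690 in the table, out of 59 mouse genes with such a symbol in the annotation, and the other 24 were not analysed here. The RNA-seq libraries came from unstimulated B cells sorted from spleen, all from female mice of the C57BL/6J strain, and fell into 4 groups. KO MZB were LSD1-knockout marginal zone B cells (2 libraries), and WT MZB were marginal zone B cells with wild-type LSD1 (3 libraries). KO FoB were LSD1-knockout follicular B cells (3 libraries), and WT FoB were follicular B cells with wild-type LSD1 (2 libraries). Marginal zone B cells respond fast to blood-borne antigen and were gated as CD23-negative, CD21-high and CD1d-positive. Follicular B cells recirculate through the follicles and were gated by CD23. The sources used here give no knockout allele, Cre line, target cells of the deletion or age. Nor do they state if a group's libraries are from different mice. The p-values therefore measure only how far these libraries spread, and that spread may be technical.

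Rab proteins are small GTPases that mark the membranes of the secretory and endocytic routes. A guanine nucleotide exchange factor (GEF) switches each of them on. While it holds GTP it recruits effectors such as tethers and motor adaptors, and it is switched off by a GTPase-activating protein (GAP). A prenyl anchor holds it in the membrane, and GDP dissociation inhibitors carry it between membranes. In B cells the same routes take the B cell receptor and its antigen to the compartments where peptides are loaded on MHC class II. They also carry secreted and surface proteins from the endoplasmic reticulum (ER) outwards.

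The deposited values are mRNA molecules per cell. They act much like reads divided by a gene length. Over 9537 genes the step that 1 read is worth had a correlation of -0.882 with exonic length, both on a log2 scale. The length behind each value is not given, and single genes departed from the annotated length. Rab8a and Rab8b have exonic lengths of 4678 and 4733 bases. In KO MZB library 1, 493 reads gave 14.6 molecules per cell for Rab8a, and 445 reads gave 5.54 for Rab8b. Orders of genes by level and shares within paralog families rest on that length. The 10 libraries held 4161051 to 6711847 reads worked back from the values. The least covered Rab gene, Rab3a, had a mean of 44.8 reads per library and none of the 35 had a value of 0. Total mRNA per cell differed between the groups. It was 105590 to 121071 molecules in KO MZB, 74815 to 99800 in WT MZB, 43562 to 55704 in KO FoB and 45237 to 56438 in WT FoB. Comparisons of the Rab genes are therefore given on 2 scales: per cell, as deposited, and rescaled, with each library divided by a factor that puts its typical gene level with the other libraries. A rescaled difference is a difference relative to the other genes. Kdm1a, the targeted gene, measured 5.37 and 5.94 molecules per cell in KO MZB, 6.37, 8.36 and 7.90 in WT MZB, 2.04, 2.36 and 1.93 in KO FoB, and 5.58 and 4.34 in WT FoB. Its KO minus WT log2 difference was -0.39 ± 0.19 (SE, adjusted p = 0.118) per cell and -0.69 ± 0.064 (adjusted p = 0.000463) rescaled in MZB, and -1.12 ± 0.19 (adjusted p = 4.31e-05) per cell and -1.10 ± 0.064 (adjusted p = 2.5e-05) rescaled in FoB. It passed on both scales in FoB and on the rescaled one alone in MZB. Marginal zone markers (6 of 6 in the table) summed to 426 to 465 molecules per cell in KO MZB, 389 to 470 in WT MZB, 45.4 to 55.1 in KO FoB and 42.7 to 59.0 in WT FoB. Rescaled, their sums were 264 to 276 in KO MZB, 313 to 346 in WT MZB, 66.9 to 75.2 in KO FoB and 67.4 to 74.0 in WT FoB. On that scale 3 of the 6 passed as lower in KO MZB than in WT MZB, beside 1.9% of all genes. Follicular markers (4 of 4) summed to 121.1 to 138 molecules per cell in KO MZB, 60.3 to 88.9 in WT MZB, 184 to 222 in KO FoB and 178 to 232 in WT FoB. Their rescaled sums were 78.4 to 78.5, 50.9 to 60.4, 291 to 307 and 280 to 291 in the same order of groups. The lists include genes of the sort gates, Cr2 (CD21) and Cd1d1 (CD1d) for marginal zone and Fcer2a (CD23) for follicular cells. The marker sums are therefore not independent of the sort. Of 40 markers of other cell types 8 were in the table, with 0 of 4 each for NK cells, neutrophils and erythroid cells. The 8 summed to 81.1 to 99.6 molecules per cell in KO MZB, 44.4 to 58.8 in WT MZB, 38.5 to 51.7 in KO FoB and 34.9 to 47.0 in WT FoB. Rescaled, they summed to 52.6 to 56.6 in KO MZB, 39.3 to 40.0 in WT MZB, 61.6 to 68.3 in KO FoB and 55.1 to 58.9 in WT FoB. Among the 8, the macrophage and monocyte markers Itgam and Ly6c2 summed to 4.36 to 6.88 molecules per cell in KO MZB, against 0.354 to 0.735 in WT MZB. In KO FoB they summed to 2.45 to 3.24, against 0.337 to 0.879 in WT FoB. In KO FoB against WT FoB 2 of the 8 were called higher per cell and 3 rescaled, and none lower. Of all genes 0.413% and 0.454% were called higher there.

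Promoter sequences are printed for the 3 Rab genes on which the results turn: the paralogs Rab8a and Rab8b, whose levels relative to other genes differed in opposite directions between the wild-type cell types, and Rab29, which had the smallest adjusted p per cell in knockout against wild-type MZB. Each is the RefSeq window (build GRCm38.p6) of 300 bases that runs from 250 bases before a start site to 50 after it, written 5′ to 3′ on the gene's strand. Capitals in Rab8a mark matches to the CCAAT box (CCAAT), and in the other two matches to a longer element, ACTACA and TCCCA with any 2 bases between them, found on either strand. The windows are chr8:72160950-72161249 (plus strand) for Rab8a, chr9:66919656-66919955 (minus strand) for Rab8b and chr1:131867027-131867326 (plus strand) for Rab29. The start site of the window is the annotated gene start for Rab8a and Rab8b, while for Rab29 it lies 67 bases inside the annotated gene, so that the window begins less far upstream there.
Rab8a: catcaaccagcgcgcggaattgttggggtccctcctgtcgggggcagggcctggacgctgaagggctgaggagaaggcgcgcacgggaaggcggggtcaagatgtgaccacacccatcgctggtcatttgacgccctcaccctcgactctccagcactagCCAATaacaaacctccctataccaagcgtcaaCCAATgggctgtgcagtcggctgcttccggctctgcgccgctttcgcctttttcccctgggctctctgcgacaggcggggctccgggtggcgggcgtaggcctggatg
Rab8b: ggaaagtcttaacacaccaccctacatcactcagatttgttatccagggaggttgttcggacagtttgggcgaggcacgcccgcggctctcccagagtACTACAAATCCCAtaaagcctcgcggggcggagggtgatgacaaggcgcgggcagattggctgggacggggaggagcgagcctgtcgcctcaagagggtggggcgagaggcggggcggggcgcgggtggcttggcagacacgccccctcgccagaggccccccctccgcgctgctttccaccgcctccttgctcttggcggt
Rab29: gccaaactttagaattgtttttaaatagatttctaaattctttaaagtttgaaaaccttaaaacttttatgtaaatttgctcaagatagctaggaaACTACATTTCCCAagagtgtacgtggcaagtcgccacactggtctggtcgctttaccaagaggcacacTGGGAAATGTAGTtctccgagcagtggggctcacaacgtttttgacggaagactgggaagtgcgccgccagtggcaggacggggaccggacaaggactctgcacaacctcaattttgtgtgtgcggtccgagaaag
Rab8a had 2 CCAAT boxes and no match to the longer element. Rab8b had 1 match to the longer element, 1 CCAAT box and 2 GC boxes (GGGCGG), the last kinds left in lower case. Rab29 had 2 matches to the longer element, 1 on each strand, and neither a CCAAT box nor a GC box. The longer element occurred in 1.47% of all 32851 promoter windows and in 2 of the 37 windows of the 31 Rab genes that had one, those of Rab8b and Rab29. CCAAT boxes occurred in 37.4% of all windows and 56.8% of Rab windows, GC boxes in 35.7% and 73.0%, and the palindromic E-box CACGTG in 7.15% and 10.8%. The Rab windows are of genes with expression values here, while the 32851 windows were not limited to such genes. These shares therefore do not show if a motif is more frequent in Rab genes than in other genes with expression values. A match of letters is no evidence of a bound factor, and the windows and motifs were chosen after the expression values were seen.

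Rab transcripts were more abundant per cell in MZB than in FoB, but took a slightly smaller share of all mRNA there. Summed over the 35 genes, they came to 267.9 and 304.6 molecules per cell in KO MZB, 198.6, 264.9 and 236.6 in WT MZB, 135.1, 153.4 and 130.0 in KO FoB, and 157.0 and 126.2 in WT FoB. No MZB library overlapped a FoB library, whereas KO FoB and WT FoB overlapped. As a share of all mRNA in the table the Rab genes made up 0.253% ± 0.00148 in KO MZB (SD, n = 2), 0.262% ± 0.00523 in WT MZB (n = 3), 0.285% ± 0.0121 in KO FoB (n = 3) and 0.279% ± 0.000636 in WT FoB (n = 2). These sums are a description and were not tested.

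**Figure D1:**
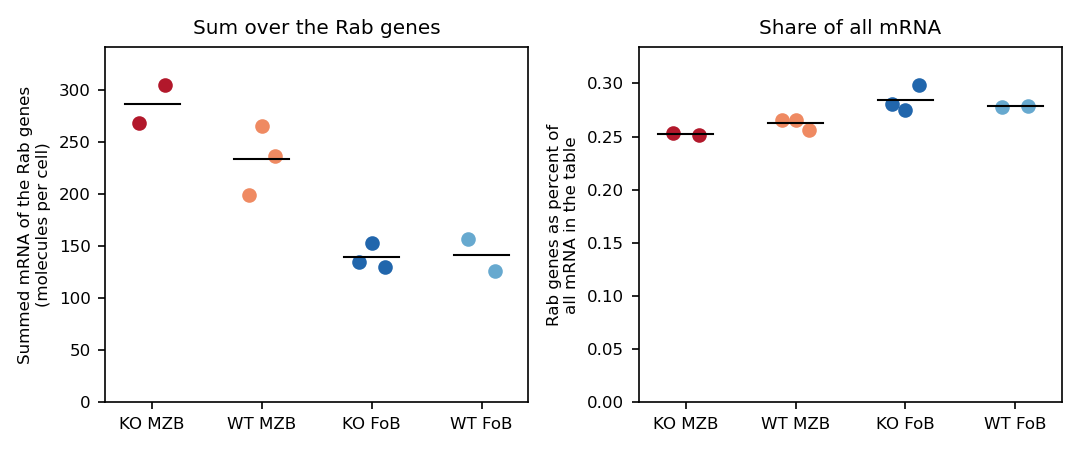
Summed mRNA of the 35 Rab genes in each library, in molecules per cell (left) and as percent of all mRNA in the table (right); points are libraries and bars group means. The KO MZB libraries stand at 267.9 and 304.6 molecules per cell and the FoB libraries between 126.2 and 157.0, while the share of all mRNA is lowest in KO MZB, at a mean of 0.253%.

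By the deposited values, which rest on a gene length that is not given, Rab7, Rab21 and Rab5c were among the first 5 members in all 4 groups. Rab7, which drives fusion of late endosomes with lysosomes, averaged 21.5 ± 2.62 molecules per cell in KO MZB (SD, n = 2) and 16.8 ± 2.97 in WT MZB (n = 3), and 11.7 ± 2.01 in KO FoB (n = 3) and 11.3 ± 2.55 in WT FoB (n = 2). It came first in KO MZB and second in the other 3 groups. Rab21, an early endosomal GTPase that acts in integrin traffic, was first in WT MZB at 17.3 ± 2.97 molecules per cell, within 1 SD of Rab7. In both FoB groups the first place belonged to Rab8a, at 11.8 ± 1.36 in KO FoB and 12 ± 2.23 in WT FoB, again within 1 SD of Rab7, but it was not among the first 5 in either MZB group. Rab8a carries vesicles from the trans-Golgi to the cell surface and to the primary cilium. Rab4b, a GTPase of rapid recycling from early endosomes, and Rab5c, an isoform of the GTPase that organises early endosome fusion, were among the first 5 in 3 and in 4 of the groups. Rab31, a GTPase of trans-Golgi and endosomal transport, had the lowest mean in each group, with 1.41 ± 0.00177 molecules per cell in KO MZB, 0.868 ± 0.131 in WT MZB, 0.556 ± 0.0559 in KO FoB and 0.466 ± 0.0193 in WT FoB. Rab3a, known from synaptic vesicle release, was among the 3 lowest in all groups, at 1.42 ± 0.00288, 1.31 ± 0.0964, 0.596 ± 0.153 and 0.676 ± 0.00496 molecules per cell in KO MZB, WT MZB, KO FoB and WT FoB. Its exons overlap those of Mpv17l2 on the other strand.

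**Figure D2:**
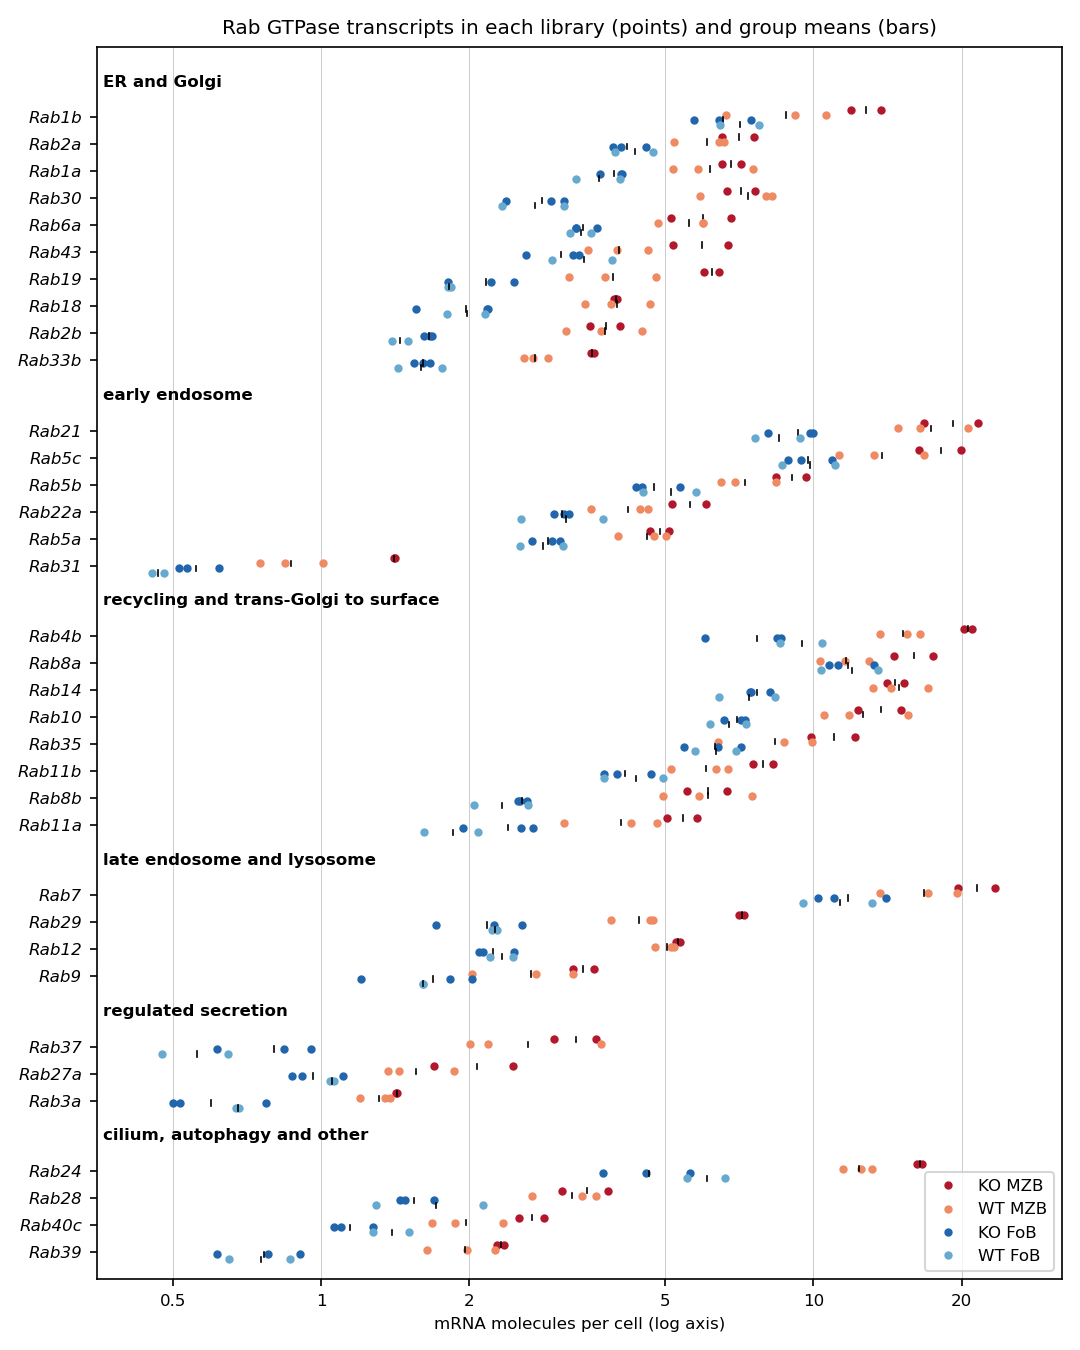
Level of each of the 35 Rab genes in mRNA molecules per cell (log axis), ordered by role; points are the 10 libraries, coloured by group, and bars are group means. Rab7, Rab21, Rab4b, Rab5c and Rab8a lie at the right, Rab31 and Rab3a at the left, and for Rab8a the WT MZB libraries overlap the FoB libraries.

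Marginal zone and follicular B cells were compared within each genotype. Per cell, 35 of the 35 Rab genes were higher in KO MZB than in KO FoB, where 97.3% of all genes were called higher and 0.444% lower, and 31 (88.6%) were higher in WT MZB than in WT FoB, where 84.2% of all genes were called higher and 1.67% lower. The 4 not called in WT were Rab8a, Rab1b, Rab43 and Rab35. The WT call was lost under 9 of 17 alternatives for Rab22a, and under 5 each for Rab11b, Rab2a and Rab40c. It was lost under 4 for Rab5c, 3 for Rab27a and 2 each for Rab5b and Rab7, and kept for the rest. In KO only the call of Rab8a was lost, under 4 of 17. The median Rab log2 difference per cell was 0.942 in KO, against 1.131 over all genes, and 0.678 in WT, against 0.784 over all genes. Neither contrast had a Rab gene called lower per cell, by limma at an adjusted p under 0.05. Every MZB library had more total mRNA per cell than any FoB library. A lack of overlap per cell is therefore not particular to a single gene. Each library was of 50000 sorted cells. These per-cell differences rest on the factor from reads to molecules, which the sources used here do not give. A different mix of cells inside a sorted group and a different level per cell cannot be told apart. On the rescaled values the family divided. In KO MZB against KO FoB 4 Rab genes were higher (11.4% of the 35, against 18.2% of all genes) and 15 were lower (42.9%, against 17% of all genes). In WT MZB against WT FoB 5 were higher (14.3%, against 25% of all genes) and 11 were lower (31.4%, against 24.9% of all genes). The median rescaled log2 difference of the Rab genes was -0.193 in KO and -0.092 in WT, against 0.003 over all genes in both. The 19 rescaled Rab calls in KO became fewer without KO MZB library 1, as did the calls over all genes, but that fit leaves 1 library in the group.

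Among the GTPases of the recycling and trans-Golgi to surface route (8 of 13 in the table), the paralogs Rab8a and Rab8b differed. Rab8a measured 14.6 and 17.5 molecules per cell in KO MZB, 10.3, 13 and 11.6 in WT MZB, 11.2, 13.3 and 10.8 in KO FoB, and 13.5 and 10.4 in WT FoB. The WT MZB libraries overlapped those of both FoB groups on this scale, and the log2 difference between MZB and FoB per cell was 0.44 ± 0.20 (adjusted p = 0.0297) in KO and -0.032 ± 0.20 (adjusted p = 0.876) in WT. Rescaled, Rab8a measured 9.44 and 9.95 in KO MZB, 9.13, 8.84 and 8.56 in WT MZB, 16.5, 17.4 and 17.2 in KO FoB, and 17 and 16.4 in WT FoB. No MZB library overlapped a FoB library here, and Rab8a had the smallest rescaled adjusted p of all members in both genotypes. It had a log2 difference of -0.80 ± 0.062 (adjusted p = 2.95e-06) in KO and -0.89 ± 0.062 (adjusted p = 6.98e-07) in WT. Rab8b, which shares the exocytic role of Rab8a, measured 5.54 and 6.67 molecules per cell in KO MZB, 4.96, 7.51 and 5.86 in WT MZB, 2.54, 2.61 and 2.51 in KO FoB, and 2.63 and 2.04 in WT FoB. In KO it was higher in MZB than in FoB per cell (1.16 ± 0.19, adjusted p = 5.24e-08) but not called on the rescaled values (-0.013 ± 0.091, adjusted p = 0.929). In WT it was higher on both scales (1.27 ± 0.19, adjusted p = 1.13e-08 per cell, 0.46 ± 0.091, adjusted p = 0.0017 rescaled). As a share of the transcripts of the pair, which does not depend on the scale, Rab8a made up 72.4% ± 0.0217 in KO MZB (SD, n = 2), 65.8% ± 2.14 in WT MZB (n = 3), 82.1% ± 1.32 in KO FoB (n = 3) and 83.7% ± 0.114 in WT FoB (n = 2). The level of the share rests on the gene lengths behind the values, but the order of the libraries in it does not. MZB and FoB libraries did not overlap in that share, with 72.5% in the highest MZB library and 81.1% in the lowest FoB library. The KO MZB libraries lay above the WT MZB libraries.

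Rab35, a GTPase of rapid endosomal recycling and of cytokinesis, measured 9.87 and 12.2 molecules per cell in KO MZB, 6.39, 9.92 and 8.73 in WT MZB, 6.4, 7.12 and 5.45 in KO FoB, and 6.95 and 5.74 in WT FoB. MZB and FoB libraries of WT overlapped, at a log2 difference per cell of 0.36 ± 0.20 (adjusted p = 0.0766). Relative to the other genes it was lower in MZB, at -0.45 ± 0.082 (adjusted p = 0.0015) in KO and -0.48 ± 0.082 (adjusted p = 0.000603) in WT. Rab11b, a GTPase of the recycling endosome, measured 7.53 and 8.27 molecules per cell in KO MZB, 5.15, 6.71 and 6.34 in WT MZB, 3.98, 4.67 and 3.76 in KO FoB, and 4.95 and 3.76 in WT FoB. It was higher per cell in MZB of both genotypes (0.89 ± 0.19, adjusted p = 1.26e-05 in KO, 0.46 ± 0.19, adjusted p = 0.0233 in WT) and lower on the rescaled values, at -0.31 ± 0.063 (adjusted p = 0.00303) in KO and -0.38 ± 0.063 (adjusted p = 0.000561) in WT. Its paralog Rab11a was higher per cell and was not called on the rescaled values in KO (-0.069 ± 0.12, adjusted p = 0.696) or WT (0.22 ± 0.12, adjusted p = 0.163). Rab14, which links the Golgi with endosomes, measured 14.1 and 15.3 molecules per cell in KO MZB, 13.2, 17.1 and 14.3 in WT MZB, 7.48, 7.42 and 8.15 in KO FoB, and 8.35 and 6.44 in WT FoB. Rab10, which moves exocytic vesicles to the plasma membrane, measured 12.3 and 15.1 molecules per cell in KO MZB, 10.5, 15.6 and 11.8 in WT MZB, 6.59, 7.12 and 7.26 in KO FoB, and 7.29 and 6.16 in WT FoB. Both were higher in MZB per cell with no overlap, and both were lower on the rescaled values in KO, at -0.32 ± 0.10 (adjusted p = 0.0335) for Rab14 and -0.29 ± 0.10 (adjusted p = 0.048) for Rab10. These calls were lost under 7 of 20 alternatives for Rab14, with an adjusted p of up to 0.16, and under 12 of 20 for Rab10, with an adjusted p of up to 0.245. Neither was called rescaled in WT (0.13 ± 0.10, adjusted p = 0.327 for Rab14 and 0.012 ± 0.10, adjusted p = 0.933 for Rab10). Rab10 shares exons with the antisense gene Rab10os. Rab4b measured 20.3 and 21.1 molecules per cell in KO MZB, 13.7, 15.5 and 16.4 in WT MZB, 8.59, 8.42 and 6.03 in KO FoB, and 10.4 and 8.55 in WT FoB, which was higher per cell in MZB in both genotypes and not called on the rescaled values (0.18 ± 0.11, adjusted p = 0.22 in KO and -0.19 ± 0.11, adjusted p = 0.156 in WT).

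The GTPases of ER and Golgi transport (10 of 15 in the table) also went both ways. Rab30, a Golgi-resident GTPase, measured 6.67 and 7.62 molecules per cell in KO MZB, 5.89, 8.24 and 8.01 in WT MZB, 2.94, 3.12 and 2.37 in KO FoB, and 3.12 and 2.33 in WT FoB. Per cell all MZB libraries lay above all FoB libraries. In KO it was higher in MZB per cell (1.27 ± 0.19, adjusted p = 7.59e-09) and not called rescaled (0.083 ± 0.080, adjusted p = 0.448). In WT the level was higher on both scales, at 1.34 ± 0.19 (adjusted p = 3.33e-09) per cell and 0.52 ± 0.080 (adjusted p = 0.00032) rescaled. Rab2b, a GTPase of the cis-Golgi, measured 3.51 and 4.05 molecules per cell in KO MZB, 3.15, 4.49 and 3.71 in WT MZB, 1.68, 1.61 and 1.67 in KO FoB, and 1.5 and 1.4 in WT FoB. It too was called higher in KO per cell only, with a rescaled difference of -0.067 ± 0.10 (adjusted p = 0.653). The WT difference was called on both scales (1.21 ± 0.19, adjusted p = 2.22e-08 per cell, 0.43 ± 0.10, adjusted p = 0.00537 rescaled). Its exons overlap those of Tox4 on the other strand. Its paralog Rab2a, which acts between Golgi and ER, measured 6.53 and 7.58 molecules per cell in KO MZB, 5.22, 6.6 and 6.42 in WT MZB, 3.92, 4.58 and 4.07 in KO FoB, and 4.72 and 3.96 in WT FoB. Rab2a was higher per cell and lower rescaled in both genotypes, with rescaled differences of -0.48 ± 0.072 (adjusted p = 0.000348) in KO and -0.38 ± 0.072 (adjusted p = 0.00131) in WT. Rab2b made up 34.9% ± 0.121 of the transcripts of this pair in KO MZB, 38.2% ± 2.04 in WT MZB, 28.4% ± 2.06 in KO FoB and 25.1% ± 1.36 in WT FoB (SD, n as above).

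Rab1b and Rab1a both carry vesicles out of the ER towards the Golgi. Rab1b measured 11.9 and 13.7 molecules per cell in KO MZB, 6.64, 10.6 and 9.19 in WT MZB, 6.44, 7.48 and 5.73 in KO FoB, and 7.74 and 6.45 in WT FoB. WT MZB and WT FoB overlapped per cell (0.28 ± 0.20, adjusted p = 0.17). The rescaled level was lower in MZB, at -0.28 ± 0.083 (adjusted p = 0.0214) in KO and -0.57 ± 0.083 (adjusted p = 0.000216) in WT. Rab1a measured 6.52 and 7.11 molecules per cell in KO MZB, 5.2, 7.52 and 5.82 in WT MZB, 3.69, 4.06 and 4.08 in KO FoB, and 4.05 and 3.3 in WT FoB. It was higher per cell in MZB of both genotypes, and lower rescaled in KO (-0.45 ± 0.098, adjusted p = 0.00456) with no call in WT (-0.13 ± 0.098, adjusted p = 0.282). Rab43, a GTPase of the Golgi, measured 5.19 and 6.69 molecules per cell in KO MZB, 3.48, 4.61 and 3.99 in WT MZB, 3.25, 3.35 and 2.61 in KO FoB, and 3.9 and 2.94 in WT FoB. As for Rab1b, WT MZB and WT FoB overlapped per cell (0.22 ± 0.19, adjusted p = 0.261). The rescaled level was lower in MZB, at -0.29 ± 0.083 (adjusted p = 0.018) in KO and -0.59 ± 0.083 (adjusted p = 0.000165) in WT. Rab6a, which acts in retrograde transport at the Golgi, measured 5.14 and 6.82 molecules per cell in KO MZB, 4.84, 5.96 and 5.96 in WT MZB, 3.29, 3.63 and 3.29 in KO FoB, and 3.53 and 3.21 in WT FoB. It was higher per cell in MZB of both genotypes, lower rescaled in KO (-0.43 ± 0.089, adjusted p = 0.00309) and not called in WT (-0.15 ± 0.089, adjusted p = 0.191). Its exons overlap those of Mrpl48 on the other strand. Rab18, which acts at the ER and lipid droplets, Rab19, and Rab33b, a Golgi GTPase that binds the autophagy machinery, were higher per cell in MZB of both genotypes and were not called on the rescaled values in either.

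Of the early endosomal GTPases (6 of 7 in the table) none was called higher in MZB on the rescaled values, where 18.2% of all genes were in KO and 25% in WT. Rab5a, Rab5b and Rab5c together organise early endosomes and their fusion. Rab5c measured 16.4 and 19.997 molecules per cell in KO MZB, 11.3, 16.8 and 13.3 in WT MZB, 9.43, 10.9 and 8.89 in KO FoB, and 11.1 and 8.62 in WT FoB. Rab5b measured 8.4 and 9.67 molecules per cell in KO MZB, 6.48, 8.39 and 6.92 in WT MZB, 4.48, 5.36 and 4.37 in KO FoB, and 5.77 and 4.5 in WT FoB. Both were higher per cell and lower rescaled in MZB of both genotypes. The rescaled difference was -0.36 ± 0.074 (adjusted p = 0.00324) in KO and -0.40 ± 0.074 (adjusted p = 0.00116) in WT for Rab5c. It was -0.31 ± 0.071 (adjusted p = 0.00525) in KO and -0.36 ± 0.071 (adjusted p = 0.00159) in WT for Rab5b. Rab5a measured 4.65 and 5.1 molecules per cell in KO MZB, 4.01, 5.02 and 4.76 in WT MZB, 2.94, 3.05 and 2.68 in KO FoB, and 3.11 and 2.54 in WT FoB. Its rescaled level was lower in KO (-0.47 ± 0.070, adjusted p = 0.000375), while the difference in WT missed the threshold (-0.17 ± 0.070, adjusted p = 0.0697). Rab22a, which sorts cargo from early endosomes for recycling, measured 5.17 and 6.06 molecules per cell in KO MZB, 3.54, 4.45 and 4.62 in WT MZB, 2.97, 3.12 and 3.19 in KO FoB, and 3.74 and 2.55 in WT FoB. Relative to the other genes it was lower in MZB, at -0.38 ± 0.10 (adjusted p = 0.0138) in KO and -0.41 ± 0.10 (adjusted p = 0.00609) in WT. Rab21 measured 16.8 and 21.6 molecules per cell in KO MZB, 14.9, 20.6 and 16.5 in WT MZB, 8.1, 9.98 and 9.85 in KO FoB, and 9.41 and 7.63 in WT FoB, higher per cell in MZB with no overlap and not called rescaled (-0.22 ± 0.11, adjusted p = 0.138 in KO, 0.13 ± 0.11, adjusted p = 0.329 in WT). Rab5c held 56.6% ± 1.29 of the transcripts of the Rab5 trio in KO MZB, 53.5% ± 1.90 in WT MZB, 56.1% ± 0.361 in KO FoB and 55.3% ± 0.285 in WT FoB. By the deposited values that was more than Rab5a and Rab5b together in every library. Rab31 was higher per cell in MZB of both genotypes and not called rescaled (0.060 ± 0.11, adjusted p = 0.693 in KO, 0.002 ± 0.11, adjusted p = 0.992 in WT).

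In the late endosomal and lysosomal group (4 of 10 in the table) Rab7 measured 19.7 and 23.4 molecules per cell in KO MZB, 13.7, 19.6 and 17.1 in WT MZB, 11, 14 and 10.2 in KO FoB, and 13.1 and 9.53 in WT FoB. It was higher per cell and lower rescaled in MZB of both genotypes, with rescaled differences of -0.37 ± 0.077 (adjusted p = 0.003) in KO and -0.31 ± 0.077 (adjusted p = 0.00646) in WT. Rab29, a partner of the kinase LRRK2 at the Golgi and at stressed lysosomes, measured 7.24 and 7.05 molecules per cell in KO MZB, 3.89, 4.66 and 4.72 in WT MZB, 2.25, 2.56 and 1.71 in KO FoB, and 2.23 and 2.28 in WT FoB. Per cell its MZB libraries all lay above its FoB libraries. Rescaled, WT FoB library 2 (3.60) lay above the WT MZB libraries (3.17 to 3.48). The rescaled level was higher in KO (0.44 ± 0.12, adjusted p = 0.0151) but not called in WT (0.077 ± 0.12, adjusted p = 0.619). Rab9, which returns cargo from late endosomes to the trans-Golgi, and Rab12, which sends receptors to lysosomes, were higher per cell in both genotypes and not called rescaled.

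Rab37 had the widest rescaled gap of the members that were higher in MZB, in both genotypes. It is known for granule secretion in mast cells, and measured 3.62 and 2.97 molecules per cell in KO MZB, 2.0, 3.7 and 2.18 in WT MZB, 0.954, 0.839 and 0.616 in KO FoB, and 0.647 and 0.474 in WT FoB. No MZB library overlapped a FoB library, and it was higher in MZB in both genotypes and on both scales. The differences were 1.71 ± 0.20 (adjusted p = 8.56e-13) per cell and 0.66 ± 0.18 (adjusted p = 0.016) rescaled in KO, and 1.73 ± 0.20 (adjusted p = 9.84e-13) per cell and 1.05 ± 0.18 (adjusted p = 0.000729) rescaled in WT. Rab3a and Rab27a, which tethers lysosome-related granules for release, make up the rest of the regulated secretion group (3 of 9 in the table). Both were higher per cell in MZB of both genotypes and not called rescaled. Rab39, which acts at late endosomes and phagosomes, measured 2.28 and 2.35 molecules per cell in KO MZB, 1.64, 2.25 and 1.98 in WT MZB, 0.781, 0.904 and 0.614 in KO FoB, and 0.863 and 0.649 in WT FoB. It was called higher in MZB on both scales in both genotypes, with rescaled differences of 0.28 ± 0.099 (adjusted p = 0.046) in KO and 0.40 ± 0.099 (adjusted p = 0.00655) in WT. The rescaled call in KO was lost under 14 of 20 alternatives, with an adjusted p of up to 0.27, and the one in WT under 1. Rab24, which acts late in autophagy, measured 16.6 and 16.3 molecules per cell in KO MZB, 11.5, 12.5 and 13.2 in WT MZB, 4.57, 5.62 and 3.73 in KO FoB, and 6.61 and 5.55 in WT FoB. Its rescaled level was higher in KO (0.56 ± 0.11, adjusted p = 0.00171) and not called in WT (0.14 ± 0.11, adjusted p = 0.287). Its exons overlap those of Prelid1 on the other strand. Rab40c, which carries a SOCS box and joins ubiquitin ligases, measured 2.53 and 2.84 molecules per cell in KO MZB, 1.68, 1.87 and 2.34 in WT MZB, 1.1, 1.27 and 1.06 in KO FoB, and 1.51 and 1.27 in WT FoB. Its rescaled level was not called in KO (-0.028 ± 0.11, adjusted p = 0.862) and was lower in MZB in WT (-0.33 ± 0.11, adjusted p = 0.0238), a call lost under 5 of 20 alternatives with an adjusted p of up to 0.132. Rab28, a GTPase of cilia, was higher per cell in MZB of both genotypes and not called rescaled. Rab43 and Rab4b share exons with predicted genes on the same strand. The sources used here do not state if counting used strand, so reads of genes with overlapping exons cannot be told apart.

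**Figure D3:**
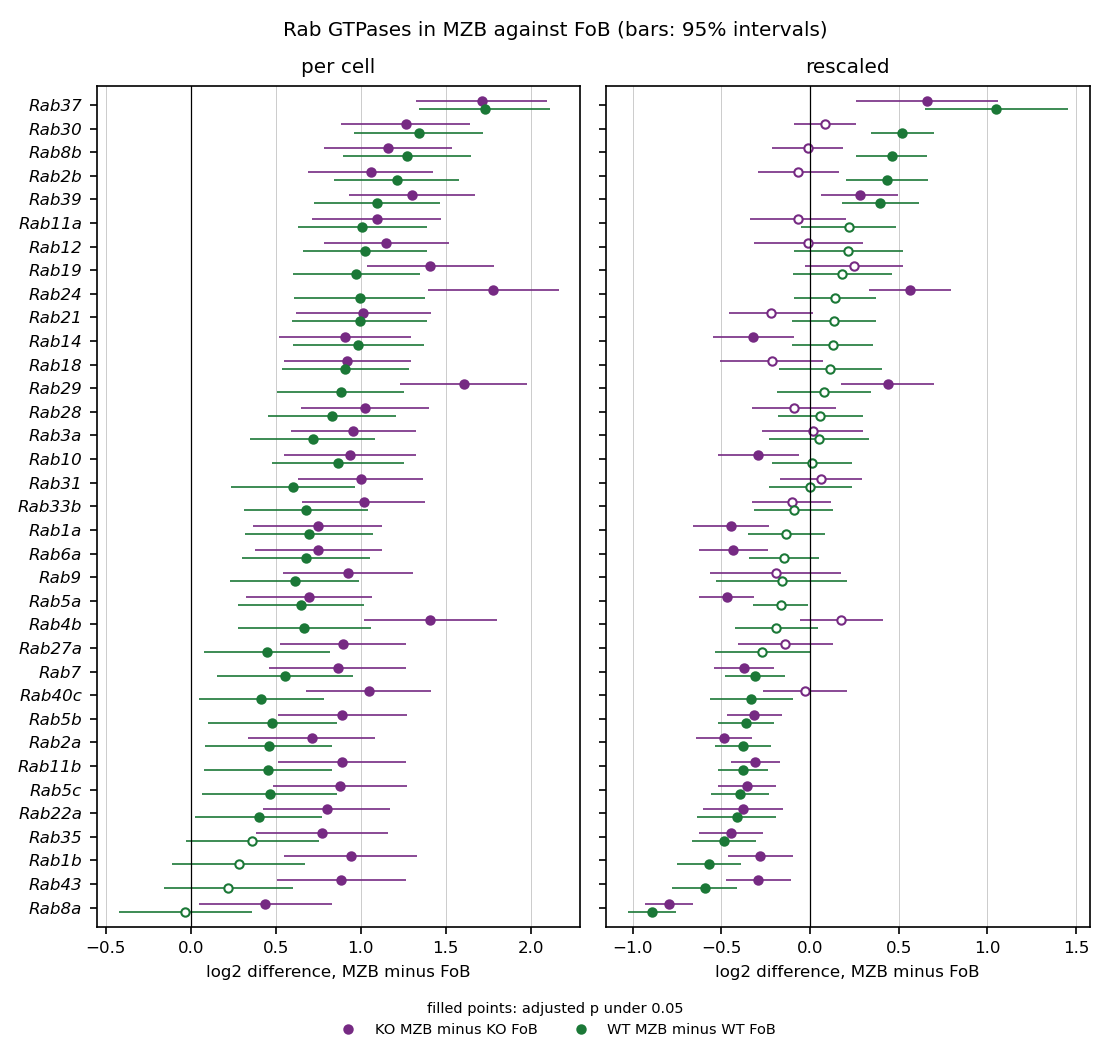
Log2 difference of each Rab gene between MZB and FoB, per cell (left) and rescaled (right), for KO and WT cells, ordered by the rescaled difference in WT; bars are 95% intervals and filled points have an adjusted p under 0.05. Per cell all KO points lie right of 0, whereas on the rescaled scale Rab8a lies farthest left, at -0.80 in KO and -0.89 in WT, and Rab37 farthest right, at 0.66 in KO and 1.05 in WT.

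The contrasts of the 2 genotypes share no library. Of the Rab genes higher in MZB on the rescaled values, Rab37 and Rab39 were called in both genotypes, which is 50% of the KO calls and 40% of the WT calls. Over all genes called higher these shares were 76.6% and 55.7%. Of those lower in MZB, 10 were called in both, 66.7% of the KO calls and 90.9% of the WT calls, beside 76.1% and 52% over all genes called lower. Across the 35 genes the rescaled differences in KO and in WT had a Pearson correlation of 0.724, against 0.836 over all genes. Genes are not independent replicates, and the value is given as a description.

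Knockout and wild-type marginal zone B cells were compared next. Per cell, 5 of the 35 Rab genes (14.3%) rose in KO MZB and none fell, beside 13.3% of all genes called higher and 0.702% called lower. The Rab median log2 difference per cell was 0.343, against 0.324 over all genes, and 13 Rab genes (37.1%) had an unadjusted p under 0.05, as did 38.7% of all genes. The 5 genes were Rab29, Rab19, Rab31, Rab1b and Rab43, and none of them was called on the rescaled values. The count is not stable to the choice of libraries, and neither is that over all genes. Without WT MZB library 1 it was 0, where 4.4% of all genes were called higher. Without WT MZB library 3 it was 2, where 8.99% of all genes were, and without KO FoB library 1 it was 3, where 10.7% were. Without WT MZB library 2 it was 10, where 28.1% of all genes were. The count also fell without either KO MZB library, as did that over all genes, but those fits leave 1 library in that group. The summed follicular markers given above were also higher in KO MZB than in WT MZB, as were 7 of the 8 markers of other cell types on both scales. Their part in these results was not tested.

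Rab29 measured 7.24 and 7.05 molecules per cell in KO MZB, against 3.89, 4.66 and 4.72 in WT MZB, with no overlap. The log2 difference was 0.66 ± 0.19 (adjusted p = 0.0123) per cell and 0.34 ± 0.12 (adjusted p = 0.123) rescaled. Rab19, a GTPase of the Golgi named here after its values were seen, measured 5.99 and 6.44 molecules per cell in KO MZB, against 3.18, 3.77 and 4.79 in WT MZB. The libraries again did not overlap, at 0.65 ± 0.19 (adjusted p = 0.0153) per cell and 0.33 ± 0.13 (adjusted p = 0.156) rescaled. Rab31, also named after its values were seen, measured 1.41 in both KO MZB libraries, against 0.751, 1.01 and 0.844 molecules per cell in WT MZB, a log2 difference of 0.56 ± 0.18 (adjusted p = 0.0326) per cell and 0.27 ± 0.11 (adjusted p = 0.157) rescaled. For Rab1b the per-cell difference was 0.55 ± 0.20 (adjusted p = 0.0488) and the rescaled one 0.22 ± 0.083 (adjusted p = 0.14). For Rab43 they were 0.53 ± 0.19 (adjusted p = 0.0498) and 0.21 ± 0.083 (adjusted p = 0.165). In both genes the KO MZB libraries lay above the WT MZB libraries per cell. Rab1b stood at 11.9 and 13.7 molecules per cell in KO MZB against 6.64, 10.6 and 9.19 in WT MZB, and Rab43 at 5.19 and 6.69 in KO MZB against 3.48, 4.61 and 3.99 in WT MZB. The per-cell call was lost under 4 of 17 alternatives for Rab29, 4 for Rab19, 8 for Rab31, 9 for Rab1b and 10 for Rab43. Among these alternatives are the fits that leave 1 library in KO MZB. Rab8a, at 14.6 and 17.5 in KO MZB against 10.3, 13.0 and 11.6 in WT MZB, missed the threshold per cell (0.45 ± 0.20, adjusted p = 0.0892). Both KO MZB libraries had more total mRNA per cell than any WT MZB library, so a lack of overlap per cell is not particular to these genes. Rescaled, the KO MZB libraries of Rab29, Rab19, Rab31, Rab1b and Rab43 also lay above the WT MZB libraries, but none of these differences was called.

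On the rescaled values 1 Rab gene fell in KO MZB and none rose, beside 1.9% of all genes called lower and 3.36% called higher. That gene was Rab30, with rescaled levels of 4.32 and 4.33 in KO MZB, against 5.21, 5.6 and 5.91 in WT MZB, no overlap, and a log2 difference of -0.34 ± 0.080 (adjusted p = 0.036). Its difference per cell was -0.032 ± 0.19 (adjusted p = 0.898). The call was lost without any 1 of the 5 MZB libraries and without either WT FoB library, and the count was 2 without KO FoB library 2 or KO FoB library 3. Without KO FoB library 2, 2.91% of all genes were called lower and 3.84% higher, and without KO FoB library 3, 5.12% and 4.65%. At an unadjusted p under 0.05 there were 12 Rab genes (34.3%, against 22.9% of all genes). The alternative limma voom on the recovered reads called 3, all lower in KO MZB, where it called 5.63% of all genes lower and 5.66% higher. Rab8b (-0.30 ± 0.091, adjusted p = 0.0872), Rab14 (-0.34 ± 0.10, adjusted p = 0.0888) and Rab5a (-0.22 ± 0.070, adjusted p = 0.0968) were the next by adjusted p on the rescaled values and missed the threshold. On the rescaled values 16 Rab genes had been called between WT MZB and WT FoB. Rab30, Rab8b and Rab2b were among those higher in WT MZB, and Rab1b, Rab43 and Rab8a among those lower. Of the 16, Rab2a (-0.105), Rab5b (-0.01) and Rab37 (0.038) had the same sign in KO MZB against WT MZB. The rest had the opposite sign, and only Rab30 was called there. Both contrasts use the WT MZB libraries, so an error in these moves the 2 differences in opposite directions. The 2 sets of values stand side by side only, and a reversal was not tested. Within the Rab1 pair Rab1b held 65.2% ± 0.841 of transcripts in KO MZB (SD, n = 2), 58.6% ± 2.56 in WT MZB (n = 3), 62.3% ± 3.41 in KO FoB (n = 3) and 65.9% ± 0.375 in WT FoB (n = 2). No KO MZB library overlapped a WT MZB library in that share.

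**Figure D4:**
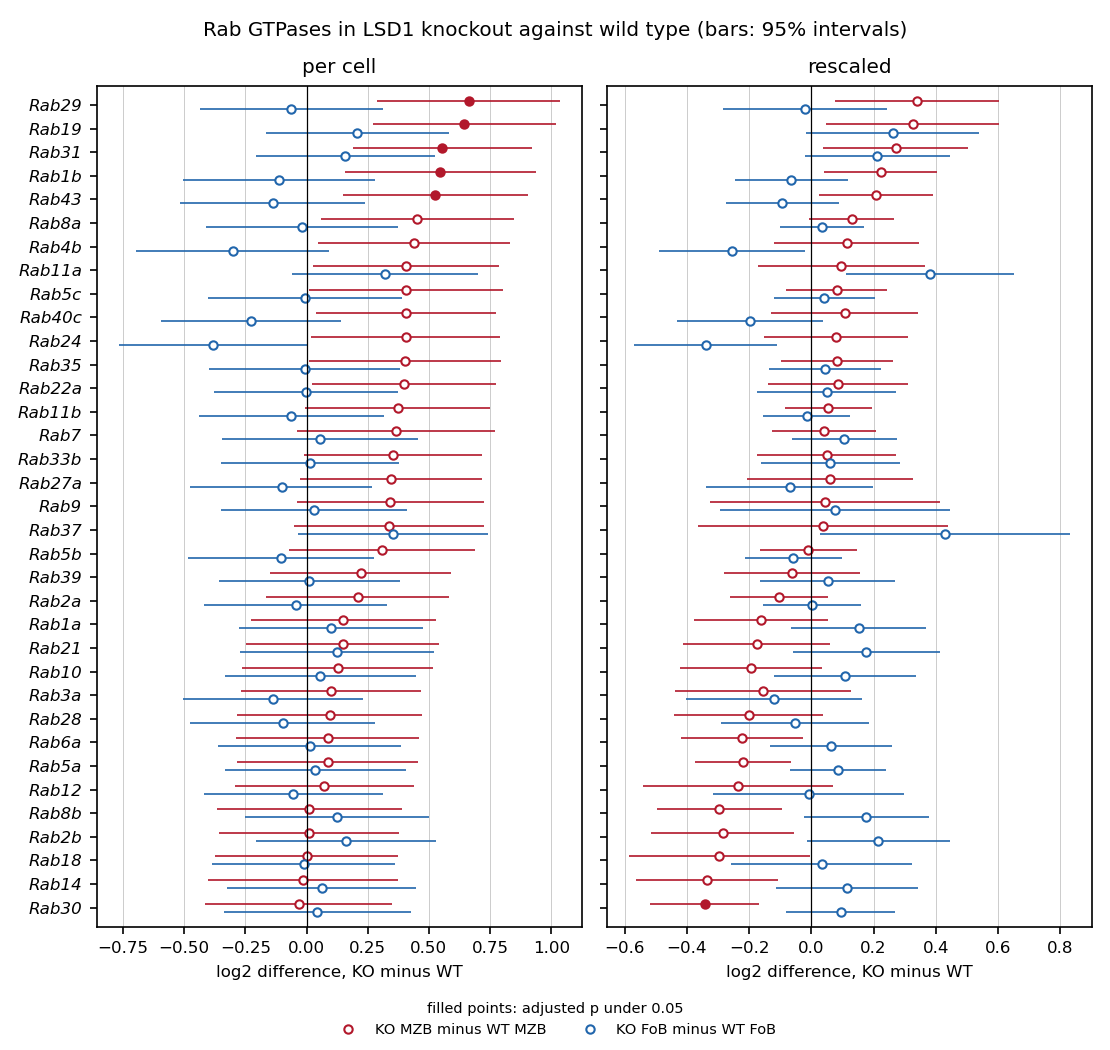
Log2 difference of each Rab gene between KO and WT cells, per cell (left) and rescaled (right), in MZB and in FoB, ordered by the per-cell difference in MZB; bars are 95% intervals and filled points have an adjusted p under 0.05. Filled points are limited to MZB: Rab29, Rab19, Rab31, Rab1b and Rab43 at 0.53 to 0.66 per cell, and Rab30 at -0.34 rescaled.

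In follicular B cells no Rab gene was called in KO against WT on either scale by limma. Over all genes 0.413% were called higher and 0.299% lower per cell, and 0.454% and 0.134% rescaled. The median Rab log2 difference was -0.001 per cell, against -0.050 over all genes, and 0.049 rescaled, against -0.006. At an unadjusted p under 0.05 there were 0 Rab genes per cell, against 3.85% of all genes, and 4 rescaled (11.4%), against 14.6% of all genes. With limma voom on the recovered reads 0 were called, beside 0.743% of all genes higher and 0.341% lower. Rescaled differences were widest for Rab37 (0.43 ± 0.18, adjusted p = 0.32), Rab11a (0.38 ± 0.12, adjusted p = 0.231) and Rab24 (-0.34 ± 0.11, adjusted p = 0.228). For Rab29 the rescaled difference in FoB was -0.020 ± 0.12 (adjusted p = 0.953), with a 95% interval of -0.28 to 0.24, and for Rab30 it was 0.094 ± 0.080 (adjusted p = 0.598), with an interval of -0.082 to 0.27.

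The knockout effects in MZB and in FoB were set against each other by the interaction term of the same fit. No Rab gene passed on either scale, where 2.02% of all genes were called higher and 0.32% lower per cell, and 0.165% and 0.144% rescaled. Unadjusted p-values under 0.05 numbered 6 per cell (17.1%, against 27.5% of all genes) and 12 rescaled (34.3%, against 22.8%). With limma voom 1 Rab gene was called, Rab8b, with the lower effect in MZB, beside 1.98% of all genes higher and 4.25% lower. Rab30 (-0.44 ± 0.11, adjusted p = 0.09), Rab8b (-0.47 ± 0.13, adjusted p = 0.0979) and Rab2b (-0.50 ± 0.15, adjusted p = 0.106) came nearest on the rescaled values, and Rab24 (0.79 ± 0.27, adjusted p = 0.0884) and Rab29 (0.72 ± 0.27, adjusted p = 0.102) per cell. Without KO FoB library 2 the count was 1 per cell and 2 rescaled. There 6.08% of all genes were called higher and 0.495% lower per cell, and 1.07% and 2.48% rescaled. The knockout effects on the Rab genes were thus not shown to differ between the cell types.

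The proteins that switch, carry and read the Rab GTPases were counted from lists. Of the GEFs 41 of 47 were in the table, of the GAPs 26 of 38, of the prenylation and GDI group 7 of 7, and of the effectors and kinases 37 of 57. Per cell, 39 GEFs, 26 GAPs, 7 prenylation and GDI genes and 37 effectors were higher in KO MZB than in KO FoB, where 97.3% of all genes were. In WT MZB against WT FoB 32, 18, 6 and 36 were higher per cell, where 84.2% of all genes were, and no gene of the 4 lists was lower per cell in either genotype. In KO MZB against KO FoB on the rescaled values, where 18.2% of all genes were higher and 17% lower, 5 GEFs were higher and 9 lower, 2 GAPs higher and 8 lower, 1 prenylation and GDI gene higher and 3 lower, and 7 effectors higher and 3 lower. In WT MZB against WT FoB, where 25% of all genes were higher and 24.9% lower, 7 GEFs were higher and 14 lower, 2 GAPs higher and 10 lower, 2 prenylation and GDI genes higher and 2 lower, and 8 effectors higher and 10 lower. The median rescaled log2 differences in KO were -0.057 for GEFs, -0.149 for GAPs, -0.159 for the prenylation and GDI group and 0.013 for effectors, and in WT -0.102, -0.117, -0.201 and -0.064, against 0.003 over all genes in both genotypes.

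Tbc1d9, a TBC-domain protein of the GAP family, had the widest gap of these lists. It averaged 6.03 ± 0.0506 molecules per cell in KO MZB (SD, n = 2), 5.46 ± 0.604 in WT MZB (n = 3), 0.137 ± 0.00430 in KO FoB (n = 3) and 0.144 ± 0.0195 in WT FoB (n = 2), with rescaled log2 differences between the cell types of 2.99 in KO and 3.15 in WT. Its FoB means lie below the 0.3 added to each value before the log, so these differences understate the gap. Dennd2d, a DENN-domain GEF, averaged 18.9 ± 1.57 in KO MZB, 15.9 ± 1.31 in WT MZB, 4.57 ± 0.581 in KO FoB and 4.42 ± 0.705 in WT FoB, at 0.76 in KO and 0.94 in WT. Rilpl2, an effector of Rab8 and Rab10 proteins that have been phosphorylated by LRRK2, averaged 14.0 ± 1.16 in KO MZB, 9.78 ± 1.18 in WT MZB, 1.83 ± 0.336 in KO FoB and 2.37 ± 0.522 in WT FoB, at 1.59 in KO and 1.10 in WT. Sbf2 (0.70 in KO and 0.83 in WT), Rufy3 (0.68 and 0.72), Tbc1d23 (0.39 and 0.61) and Rabggtb, the catalytic beta subunit of the Rab prenyltransferase (0.56 and 0.44), were also higher in MZB in both genotypes, all as rescaled log2 differences. Lower in MZB on the rescaled values in both genotypes were Madd, a GEF for Rab3 and Rab27 (-0.73 in KO and -0.996 in WT), Tbc1d14, which acts in autophagy (-0.61 and -0.78), and Rabac1, a prenylated Rab acceptor (-0.56 and -0.91). None of these 3 was lower per cell by the test. In KO their differences per cell were 0.47 (adjusted p = 0.0176) for Madd, 0.59 (adjusted p = 0.00264) for Tbc1d14 and 0.66 (adjusted p = 0.00146) for Rabac1, all called higher. In WT they were -0.16 (adjusted p = 0.413), 0.053 (adjusted p = 0.792) and -0.055 (adjusted p = 0.795). In WT the rescaled calls named by the same rule included Rabgef1, a GEF for Rab5 (-1.02), Tbc1d17 (-0.81), Plekhm1, which binds Rab7 (-0.54), Vps11, a core subunit of the endosomal tethers (-0.30), Rabggta (-0.27) and Chm, the Rab escort protein that presents Rabs to the prenyltransferase (0.41). Per cell the WT differences were -0.23 for Rabgef1, 0.016 for Tbc1d17 and 0.31 for Plekhm1, none of them called, whereas Vps11 (0.53), Rabggta (0.56) and Chm (1.16) were called higher. In KO the rescaled calls included Dennd5b (-0.97), Chml, the paralog of Chm (-0.55), Tbc1d1 (-0.51), Eea1, the early endosome tether that binds Rab5 (-0.47), and Uso1, a tether of ER-to-Golgi vesicles (-0.27). Per cell Dennd5b was not called, at 0.22 (adjusted p = 0.253), and Chml (0.43), Tbc1d1 (0.68), Eea1 (0.61) and Uso1 (0.91) were called higher in KO MZB than in KO FoB.

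In knockout against wild-type MZB 5 GEFs (12.2% of those in the table), 3 GAPs (11.5%) and 2 effectors (5.41%) rose per cell and no gene of the 4 lists fell, beside 13.3% of all genes called higher and 0.702% lower. On the rescaled values 1 GEF (2.44%) and 1 effector (2.7%) rose in KO MZB, beside 3.36% of all genes called higher and 1.9% lower. In KO FoB against WT FoB 0 genes of the lists passed on either scale, where all genes gave 0.413% higher and 0.299% lower per cell, and 0.454% and 0.134% rescaled. At an unadjusted p under 0.05, by the same limma fit, FoB had 1 prenylation and GDI gene per cell (14.3%), against 3.85% of all genes. Rescaled there were 6 GEFs (14.6%), 1 GAP (3.85%), 3 prenylation and GDI genes (42.9%) and 7 effectors (18.9%), against 14.6% of all genes. Dennd5b, a DENN-domain GEF, averaged 5.09 ± 0.190 molecules per cell in KO MZB (n = 2) and 2.99 ± 0.458 in WT MZB (n = 3), a rescaled log2 difference of 0.40 (adjusted p = 0.0391) and 0.72 per cell (adjusted p = 0.00559). Plekhm1, which joins Rab7 to the tethers of lysosome fusion, averaged 14.1 ± 0.824 in KO MZB and 8.84 ± 1.05 in WT MZB, a rescaled log2 difference of 0.33 (adjusted p = 0.0234) and 0.66 per cell (adjusted p = 0.016).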

How the data were processed

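Poly(A)-selected RNA of 10 libraries was sequenced, and each library was placed in its group by the labelled cell type and LSD1 status. The authors deposited 1 signal value for each gene in each library, in mRNA molecules per cell per the file headers. STAR and the mm10 build are named per the submitters' processing notes. How reads were counted and scaled to molecules is not stated in the sources used here. Symbols were found for 9681 of 9690 genes in RefSeq (GRCm38.p6), and whole reads were worked back for 100% of genes within 0.1 reads.

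Log2(value + 0.3) was fitted with limma 3.58.1 in R 4.3.3 over all genes and all 10 libraries, with 1 coefficient per group, an intensity trend and two-sided tests, and p-values were adjusted by Benjamini-Hochberg with a threshold of 0.05. A gene called higher or lower is one past that threshold. Differences understate the change of low genes. Genes needed 0.3 in at least 2 libraries, which removed 0 genes. For rescaled values each library was divided by its own factor, the trimmed mean of its log-ratios (trims 0.3 and 0.05, factors 0.62 to 1.76). The prior degrees of freedom were 86.93 per cell and 4.971 rescaled, and an error in a library's per-cell scale touches all its genes at once, which the per-cell p-values do not take in. Scripts were tested on simulated data. No library equalled another, and the chi-square per gene within groups was 1.9 to 7.17.

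The Rab genes, role groups and lists were chosen with earlier results of these data known. Kdm1a is named first. Rab genes are given in full where called on the rescaled values in a contrast or on both scales, or where highest in a role group, and up to 2 genes per list, contrast and direction with the smallest p. Alternatives were other pseudocounts, filters, weights, a replicate block, voom on reads, and leaving out each library. Count models were not run, since the values are scaled. Sums, shares within paralog families and promoter letters were described and not tested.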

Additional observations from a re-analysis of the deposited data

How the results depend on the processing

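Leaving out each library in turn moved the number of Rab genes called between 0 and 10 per cell and between 0 and 2 rescaled for KO MZB against WT MZB, between 0 and 0 on both scales for KO FoB against WT FoB, between 34 and 35 per cell and 10 and 19 rescaled for KO MZB against KO FoB, between 23 and 33 per cell and 12 and 16 rescaled for WT MZB against WT FoB, and between 0 and 1 per cell and 0 and 2 rescaled for the difference of the knockout effects. The calls over all genes moved with the library left out as well. The summed Rab mRNA moved between 267.9 and 304.6 molecules per cell in KO MZB, 217.6 and 250.7 in WT MZB, 132.6 and 144.2 in KO FoB, and 126.2 and 157.0 in WT FoB. For KO MZB against WT MZB, the 5 calls per cell became 2 with a pseudocount of 0.1, 2 with library weights and 2 when only the compared groups were fitted. All genes called higher went from 13.3% to 9.14%, 7.87% and 11.1%. The 1 rescaled call became 4 with library weights, 3 when only the compared groups were fitted and 3 with limma voom on the recovered reads. All genes called higher went from 3.36% to 6.78%, 4.45% and 5.66%, and those called lower from 1.9% to 6.51%, 4.91% and 5.63%. limma voom called 1 Rab gene for the rescaled difference of the knockout effects, where the main count was 0. The cause of these shifts was not tested. The replicate block gave 0 calls per cell and 0 rescaled for KO MZB against WT MZB, 34 and 16 for KO MZB against KO FoB, and 27 and 16 for WT MZB against WT FoB. Over all genes it called 4.92%, 96.3% and 81.5% higher per cell in these 3 contrasts. Rescaled it called 2.01%, 17.1% and 22.4% higher and 0.722%, 15.4% and 22.4% lower. Same-numbered libraries had correlations of 0.187 and 0.149 between KO MZB and WT MZB, and 0.061 and 0.006 between KO FoB and WT FoB, with 2 pairs each. So few pairs do not settle if the numbers pair the libraries, and the labels name no shared animal or batch. Of 107 calls on single Rab genes, 78 were kept under every alternative run. The 107 include 35 per-cell calls in KO MZB against KO FoB and 31 in WT MZB against WT FoB, where most genes were called. None of the calls in KO MZB against WT MZB, 5 per cell and 1 rescaled, was kept under every alternative. Over all alternatives 1792 values kept their side of the threshold, 135 lost it and 0 changed direction. Depth limits Rab3a most, with 26 reads in its lowest library.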
